A study of Homo sapiens with 6 samples.

Results

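The 10 genes described here are CDH1, CDH2, CDH3, VIM, ZEB1, SNAI2, FN1, TWIST1, EPCAM and ESRP1, a core set of epithelial-mesenchymal transition genes. They were taken by symbol from a table of 27852 gene symbols, and all 10 were in it. RNA was measured in 3 human oral cancer cell lines, HSC3, HSC4 and SAS. Each line gave 1 library from HPLM, a medium composed to resemble human plasma, and 1 from DMEM, a standard culture medium, so there were 3 libraries per medium. Both media held heat-inactivated fetal bovine serum and an antibiotic and antimycotic mixture, and the time in each medium is not given in the sources used here. The comparisons address how these genes differ with the medium and between the lines.

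In epithelial-mesenchymal transition, epithelial cells lose the junctions that tie them to their neighbours and take on the shape and matrix of mesenchymal cells. Transcription factors of the SNAI, ZEB and TWIST families repress E-cadherin, the product of CDH1, and favour N-cadherin (CDH2), vimentin (VIM) and fibronectin (FN1). In carcinoma the programme is often partial, so that one cell holds markers of both states. Squamous epithelium also makes P-cadherin (CDH3), and ESRP1 is a splicing factor that keeps epithelial exons in many mRNAs.

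Levels are given as CPM, estimated counts of a gene relative to the total of its library, after scaling between libraries. The deposited estimates are corrected for transcript length, so CPM of different genes can be set side by side per length. Library totals lay between 17716006 and 20171713 estimated counts. Of 6 epithelial markers, all 6 passed the filter on low counts. Their summed level was 2560 to 4750 CPM in HPLM and 2460 to 5400 CPM in DMEM. KRT14 and KRT19 were low in HSC4, at 10.8 and 4.69 CPM in HPLM and 4.39 and 2.29 CPM in DMEM. In HPLM they were at 1180 and 282 CPM for HSC3, and at 164 and 153 CPM for SAS. The 7 fibroblast markers summed to 3.02 to 6.45 CPM in HPLM and 1.94 to 6.06 CPM in DMEM, with COL3A1 at 0 in every library. The 6 leukocyte markers summed to at most 7.07 CPM and the 5 endothelial markers to at most 2.59 CPM in any library, with KDR at 0 in all 6. The highest single levels in these lists were COL1A1 at 5.59, CD14 at 3.12 and CDH5 at 2.17 CPM. PTPRC, a leukocyte marker, lay between 1.48 and 2.3 CPM. These are bulk libraries, in which fewer cells of a type and less RNA per cell cannot be told apart.

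**Figure D1:**
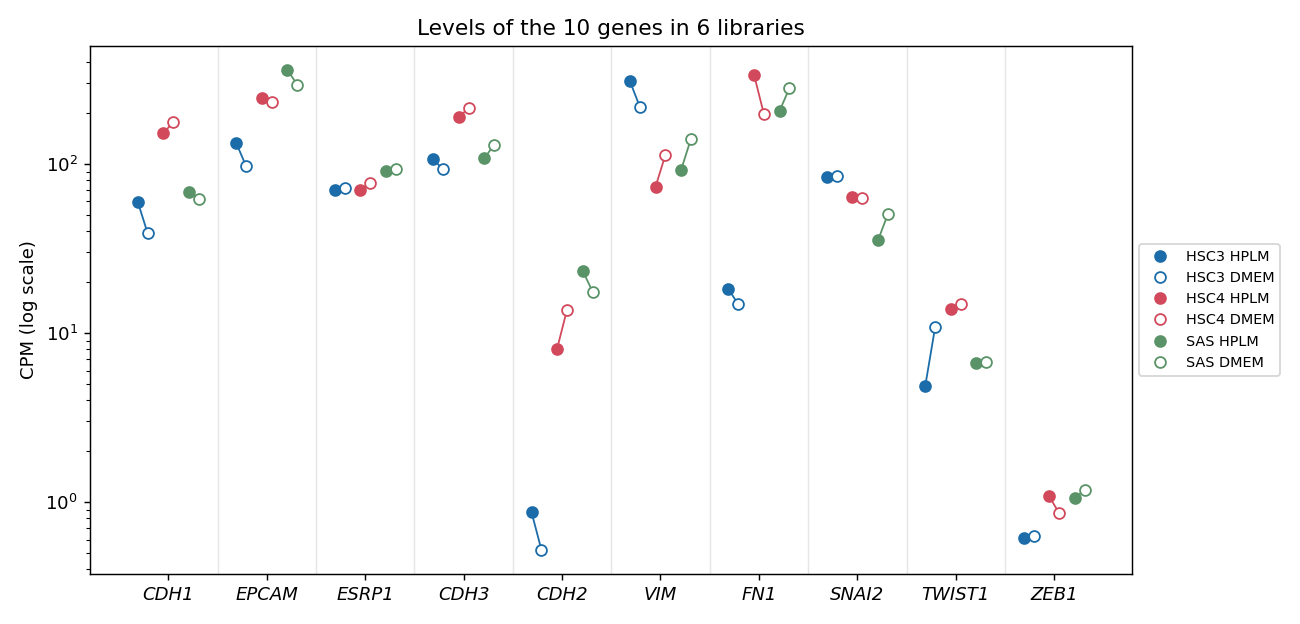
CPM (log scale) of the 10 genes in each library, with HPLM as filled and DMEM as open points and 1 color per line. The lines joining points pair the media of a cell line. CDH2 and FN1 lie far lower in HSC3 than in HSC4 and SAS, while ZEB1 lies at 1.18 CPM or less in every library.

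All 3 lines carried high levels of epithelial adhesion genes together with vimentin and SNAI2. ZEB1 RNA did not exceed 1.18 CPM in any library. Among the 10 genes, N-cadherin and fibronectin had the largest differences between HSC3 and either other line, and both were low in HSC3. HSC3 nevertheless had the highest vimentin level. A call below means an adjusted p under 0.05 in edgeR's quasi-likelihood test, with Benjamini-Hochberg adjustment over the 13236 genes tested, and all 10 genes were among those tested. In the line comparisons each line stands on 2 libraries that differ in medium, with the medium as a term of the fit. The p-values thus rest on how unevenly the lines differ between the media. They do not measure the spread between repeat cultures of a line in 1 medium.

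Between HSC3 and HSC4, 6 of the 10 genes were called, against a background of 37.4% of all genes tested. Of these, 1 was higher in HSC3 (18.6% of all genes tested were) and 5 were lower (18.8%). Between HSC3 and SAS, 6 were called (39.4% of all genes), 2 higher in HSC3 (20.6%) and 4 lower (18.8%). Between HSC4 and SAS, 5 were called (41.3%), 4 higher in HSC4 (21.3%) and 1 lower (20.0%). The median absolute log2 fold change of the 10 genes was 1.03, 0.92 and 0.51 in these 3 comparisons, beside 0.49, 0.51 and 0.52 over all genes tested. The signed median was -0.97, -0.39 and -0.06 for the 10 genes and within 0.01 of 0 for all genes.

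**Figure D2:**
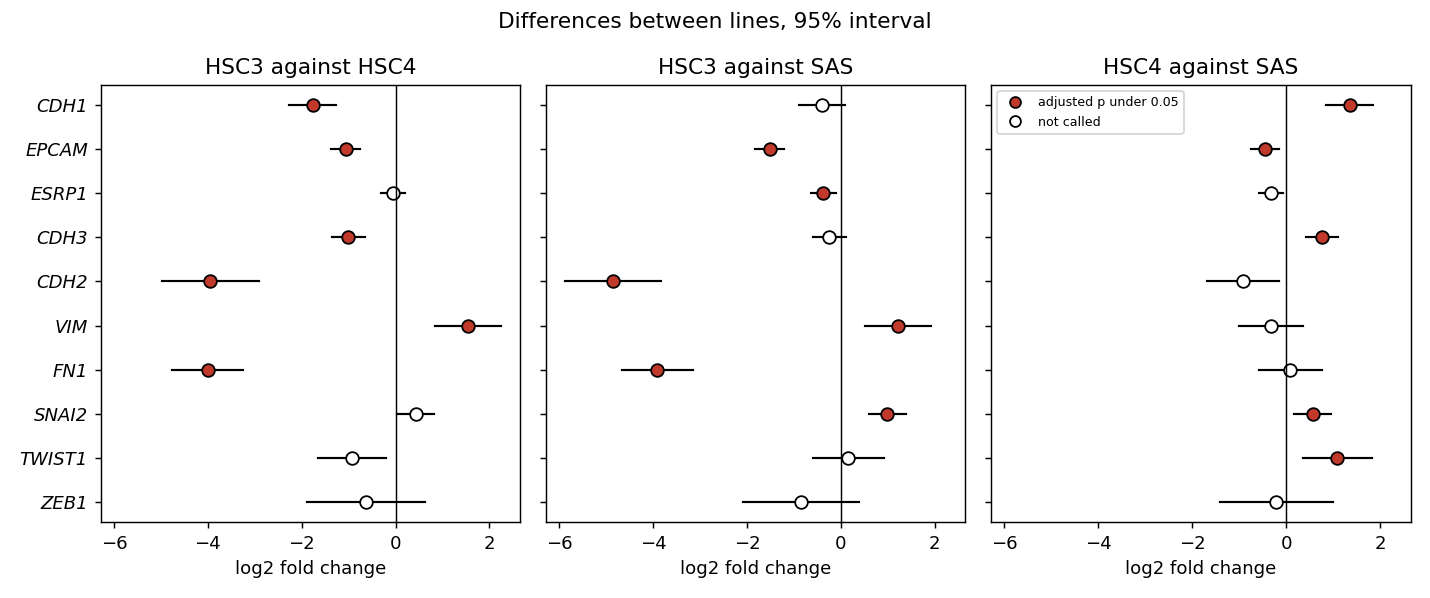
Log2 fold change of the 10 genes between lines, with 95% intervals from the edgeR fit. Red points have an adjusted p under 0.05 and white points do not. The CDH2 and FN1 points lie between -3.91 and -4.86 wherever HSC3 is compared with another line.

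CDH1 encodes E-cadherin, the calcium-dependent adhesion molecule of epithelial adherens junctions. Its level was 59.6 CPM in HPLM and 38.9 in DMEM for HSC3, 152 and 177 for HSC4, and 67.9 and 61.9 for SAS. Both HSC4 libraries stood above all 4 others, and the HSC3 and SAS libraries lay between 38.9 and 67.9 CPM. The log2 fold change was -1.76 ± 0.21 (SE) for HSC3 against HSC4 (edgeR adjusted p = 0.00232) and 1.35 ± 0.20 for HSC4 against SAS (adjusted p = 0.00438). HSC3 against SAS gave -0.41 with a 95% interval of -0.90 to 0.08 (adjusted p = 0.154), and this comparison passed without the HSC3 library in HPLM (-0.76, adjusted p = 0.0403). GENCODE 29 places CDH1 at 68737225 to 68835548 of chromosome 16 (GRCh38, plus strand).

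CDH3, the P-cadherin gene, spans 68636189 to 68722616 on the same strand of chromosome 16 and ends 14608 bases before the start of CDH1. P-cadherin is the classical cadherin of basal cells in stratified epithelium. The level was 107 CPM in HPLM and 92.8 in DMEM for HSC3, 189 and 214 for HSC4, and 108 and 130 for SAS. As for CDH1, both HSC4 libraries were above the other 4. The log2 fold change was -1.005 ± 0.14 (SE) for HSC3 against HSC4 (edgeR adjusted p = 0.00427) and 0.76 ± 0.14 for HSC4 against SAS (adjusted p = 0.00882). The second call ended without the HSC4 library in DMEM (0.0654) and without the SAS library in HPLM (0.0715). CDH3 exceeded CDH1 in every library, by a ratio of 1.79 in HPLM and 2.39 in DMEM for HSC3, 1.24 and 1.21 for HSC4, and 1.58 and 2.09 for SAS.

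EPCAM encodes an epithelial cell adhesion molecule that is used as a surface marker of carcinoma cells. It was at 133 CPM in HPLM and 97.1 in DMEM for HSC3, 244 and 231 for HSC4, and 360 and 294 for SAS. The 3 lines did not overlap, in the order HSC3, HSC4, SAS from low to high. HSC3 was lower than HSC4 by a log2 fold change of -1.06 ± 0.13 (SE, adjusted p by edgeR = 0.00246) and lower than SAS by -1.51 ± 0.13 (adjusted p = 0.000895). HSC4 was lower than SAS by -0.45 ± 0.12 (adjusted p = 0.0306), a call that ended without any 1 of the 4 libraries of these lines (adjusted p from 0.0537 to 0.188), without scaling factors (0.121) and without the medium as a block (0.0859). EPCAM spans 47345158 to 47387601 of chromosome 2 (plus strand).

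ESRP1, the epithelial splicing regulator on chromosome 8, had the smallest ratio of highest to lowest library among the 10 genes. Its level was 70.0 CPM in HPLM and 71.7 in DMEM for HSC3, 70.1 and 77.3 for HSC4, and 90.4 and 92.8 for SAS. Both SAS libraries were the highest. HSC3 against SAS gave a log2 fold change of -0.37 ± 0.11 (SE, adjusted p by edgeR = 0.0354), and the call ended without any 1 of the 4 libraries of these lines (adjusted p from 0.131 to 0.173), without both HSC4 libraries (0.0524) and without the filter on low counts (0.0584). HSC3 against HSC4 gave -0.06 with a 95% interval of -0.31 to 0.20, and HSC4 against SAS gave -0.31 with an interval of -0.57 to -0.06 (adjusted p = 0.706 and 0.0559). The second comparison passed with upper-quartile scaling (0.0499) and with limma-voom (0.0488).

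CDH2 encodes N-cadherin, the cadherin of neural and mesenchymal cells that can replace E-cadherin. The level was 0.871 CPM in HPLM and 0.523 in DMEM for HSC3, 8.09 and 13.7 for HSC4, and 23.3 and 17.6 for SAS. The HSC3 libraries lay under 1 CPM and every other library above 8 CPM. HSC3 was 15.4-fold lower than HSC4 (log2 fold change -3.95 ± 0.42, SE; edgeR adjusted p = 0.00193) and 29-fold lower than SAS (-4.86 ± 0.42, adjusted p = 0.000956). The first estimate was -4.55 without the HSC4 library in HPLM and -3.33 without the HSC4 library in DMEM, and both were called. HSC4 against SAS gave -0.91 ± 0.32 (adjusted p = 0.0622), and this passed with limma-voom (0.0403), without the HSC4 library in DMEM (-1.54, 0.0228) and without both HSC3 libraries (0.0472). It was -0.32 without the HSC4 library in HPLM (adjusted p = 0.348) and -0.55 without the SAS library in HPLM (0.337). CDH1 exceeded CDH2 in every library, by a ratio of 68.5 in HPLM and 74.4 in DMEM for HSC3, 18.8 and 12.9 for HSC4, and 2.91 and 3.52 for SAS.

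FN1 encodes fibronectin, a glycoprotein of the extracellular matrix that integrins bind. Its level was 18.2 CPM in HPLM and 14.8 in DMEM for HSC3, 338 and 198 for HSC4, and 206 and 281 for SAS. The HSC3 libraries lay more than 10-fold below all others, and HSC4 and SAS overlapped. The log2 fold change was -4.00 ± 0.31 (SE) for HSC3 against HSC4, a 16-fold lower level (edgeR adjusted p = 0.000942), and -3.91 ± 0.31 against SAS, 15-fold lower (adjusted p = 0.000804). HSC4 against SAS gave 0.09 with a 95% interval of -0.57 to 0.76 (adjusted p = 0.808). FN1 spans 215360440 to 215436172 of chromosome 2 and CDH2 27950966 to 28177446 of chromosome 18, both on the minus strand. Under every alternative tried, CDH2 and FN1 were called as lower in HSC3 than in HSC4 and in SAS.

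VIM encodes vimentin, the intermediate filament protein of mesenchymal cells. VIM spans 17228259 to 17237593 of chromosome 10 (plus strand). It ran in the opposite order, at 308 CPM in HPLM and 218 in DMEM for HSC3, 73.5 and 113 for HSC4, and 92.4 and 141 for SAS. Both HSC3 libraries stood above all 4 others, and HSC4 and SAS overlapped. HSC3 was higher than HSC4 by a log2 fold change of 1.54 ± 0.29 (SE, adjusted p by edgeR = 0.0101) and higher than SAS by 1.22 ± 0.29 (adjusted p = 0.0195). The first call ended without the HSC4 library in HPLM (0.0851) and the second without the SAS library in HPLM (0.135). Without the HSC3 library in HPLM the estimates were 0.96 against HSC4 and 0.63 against SAS, and without the HSC3 library in DMEM they were 2.08 and 1.75, all of them called. The ratio of CDH1 to VIM was 0.194 in HPLM and 0.179 in DMEM for HSC3, 2.07 and 1.56 for HSC4, and 0.735 and 0.44 for SAS, so CDH1 exceeded VIM in HSC4 and in neither of the other lines.

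CDH2, FN1 and VIM are shown with the sequence around their RefSeq gene starts, because they set HSC3 apart in opposite directions. Each window runs from 250 bases before to 50 bases after the start, 5′ to 3′ on the gene's strand (RefSeq, GRCh38.p14). Of the 10 genes, CDH2, FN1, VIM and ZEB1 had a window in the table used, and ZEB1 was left out for its low level. CDH2 had 2 windows, of which the one nearest its GENCODE start is shown. The CDH2 window is chr18:28177081-28177380 (minus strand), the FN1 window is chr2:215436019-215436318 (minus strand), and the VIM window is chr10:17227991-17228290 (plus strand). Capitals mark matches on either strand to the GC box GGGCGG, the CCAAT box (CCAAT) and the cAMP response element TGACGTCA.
CDH2: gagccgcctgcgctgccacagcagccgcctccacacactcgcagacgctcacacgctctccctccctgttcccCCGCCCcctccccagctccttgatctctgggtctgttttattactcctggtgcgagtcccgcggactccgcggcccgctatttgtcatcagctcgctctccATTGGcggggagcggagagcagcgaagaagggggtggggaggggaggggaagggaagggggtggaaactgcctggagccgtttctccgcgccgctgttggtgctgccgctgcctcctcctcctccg
FN1: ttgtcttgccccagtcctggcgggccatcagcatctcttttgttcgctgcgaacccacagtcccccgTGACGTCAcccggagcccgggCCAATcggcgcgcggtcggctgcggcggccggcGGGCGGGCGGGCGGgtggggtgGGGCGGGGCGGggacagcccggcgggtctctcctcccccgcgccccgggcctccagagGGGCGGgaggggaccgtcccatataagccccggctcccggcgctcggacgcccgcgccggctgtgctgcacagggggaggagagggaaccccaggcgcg
VIM: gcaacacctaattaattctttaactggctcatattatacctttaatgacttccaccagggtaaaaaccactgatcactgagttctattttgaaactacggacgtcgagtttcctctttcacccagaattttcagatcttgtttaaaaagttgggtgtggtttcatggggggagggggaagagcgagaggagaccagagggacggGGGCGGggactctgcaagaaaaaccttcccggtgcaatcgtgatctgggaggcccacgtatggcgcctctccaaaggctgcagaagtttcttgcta
The FN1 window held 1 cAMP response element, which 1.8% of 35116 such windows hold, 6 GC boxes, some of them overlapping each other, and 1 CCAAT box. The CDH2 window held 1 GC box and 1 CCAAT box, and the VIM window held 1 GC box. GC boxes were in 45.0% and CCAAT boxes in 34.6% of all windows. The E-box CACCTG, counted on both strands and the form that ZEB and SNAI factors bind, was in 20.6% of all windows, and the AP-1 site TGANTCA in 7.7%. Neither had a match in these 3 windows. The windows were not checked against the starts of the transcripts that held most of each gene's estimate. GC content was 67.0% for CDH2, 76.7% for FN1 and 48.0% for VIM, beside a median of 58.7% over all windows.

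Of the 3 transcription factor genes, SNAI2 was by far the highest. SNAI2 encodes SLUG, a zinc-finger repressor that is also present in basal keratinocytes. Its level was 84.2 CPM in HPLM and 85.0 in DMEM for HSC3, 63.5 and 62.5 for HSC4, and 35.4 and 50.4 for SAS. The lines did not overlap, with HSC3 highest and SAS lowest. HSC3 was higher than SAS by a log2 fold change of 0.99 ± 0.16 (SE, adjusted p by edgeR = 0.00571) and HSC4 was higher than SAS by 0.57 ± 0.16 (adjusted p = 0.034). The second call ended without the HSC4 library in HPLM (0.182), the HSC4 library in DMEM (0.0697) or the SAS library in HPLM (0.221), and without the filter on low counts (0.0544). HSC3 against HSC4 gave 0.42 ± 0.16 (adjusted p = 0.082), which passed without both SAS libraries (0.0471).

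TWIST1, a basic helix-loop-helix factor, was at 4.87 CPM in HPLM and 10.8 in DMEM for HSC3, 13.8 and 14.9 for HSC4, and 6.67 and 6.78 for SAS. Both HSC4 libraries were the highest, and the HSC3 libraries lay on either side of those of SAS. HSC4 was higher than SAS by a log2 fold change of 1.09 ± 0.30 (SE, adjusted p by edgeR = 0.0315), a call that ended without any 1 of the 4 libraries of these lines (adjusted p from 0.0579 to 0.193). HSC3 against HSC4 gave -0.93 ± 0.30 (adjusted p = 0.054). That comparison passed with DESeq2 (0.0493), limma-voom (0.0378), no scaling factor (0.0291), without the HSC3 library in DMEM (0.0184) and without both SAS libraries (0.0487).

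ZEB1, a zinc-finger and homeobox repressor of CDH1, was at 0.615 CPM in HPLM and 0.627 in DMEM for HSC3, 1.08 and 0.859 for HSC4, and 1.06 and 1.18 for SAS. The highest library did not reach 2 CPM. No comparison of lines called it, and the widest 95% interval, for HSC3 against HSC4, ran from -1.88 to 0.62 on the log2 scale.

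Of the 5 calls between HSC4 and SAS, CDH1 alone was called in every alternative fit. CDH1 and CDH3 stayed called without the HSC4 library in HPLM, CDH1 alone of the 5 without the HSC4 library in DMEM, where CDH2 was called in addition, CDH1 alone without the SAS library in HPLM, and CDH1, CDH3 and SNAI2 without the SAS library in DMEM.

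Between the media, none of the 10 genes passed the test over the 3 lines. The edgeR fit with the cell line as a block called 0 of the 10, against 0.00756% of all genes tested. At an unadjusted p under 0.05 it counted 1 of the 10, EPCAM, against 10.1% of all genes. DESeq2 called 0 of the 10 (0.960% of all genes) and limma-voom 0 (0.0680%). The median log2 fold change was -0.05 over the 10 genes and 0.00 over all genes tested, and the median absolute change was 0.17 beside 0.15.

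**Figure D3:**
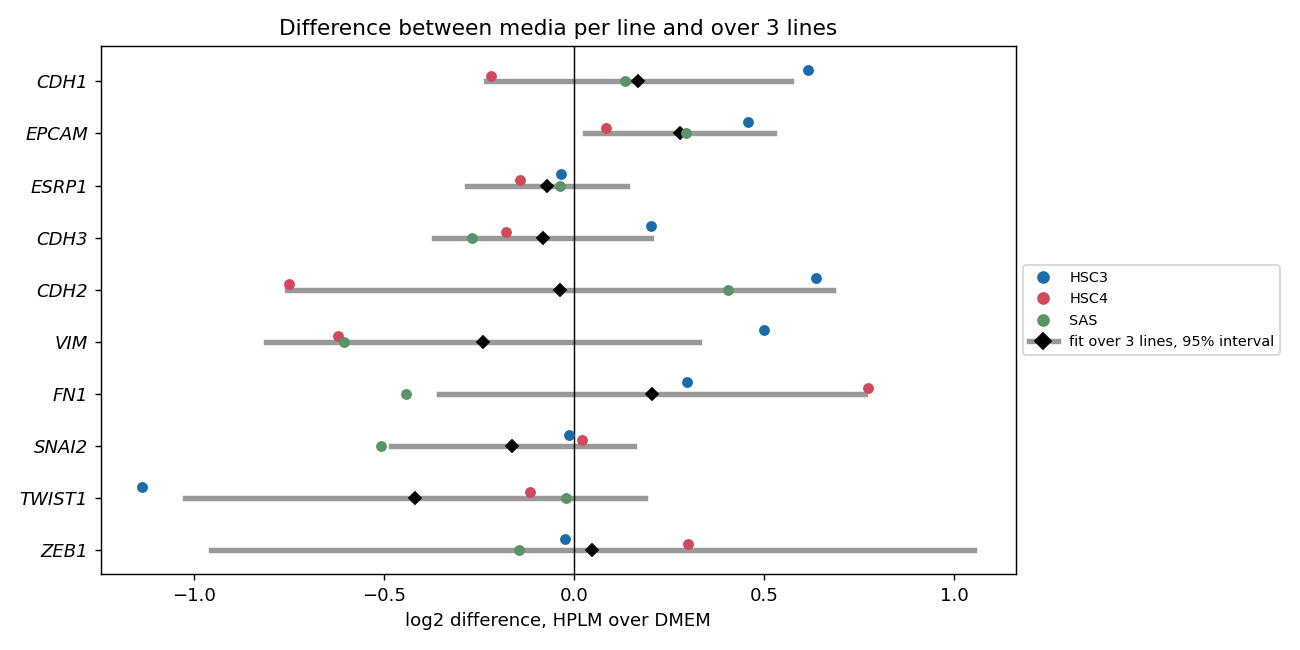
Log2 difference of HPLM over DMEM for the 10 genes. Colored points are single lines with no replicate, and diamonds with bars are the edgeR estimate over 3 lines with its 95% interval. For VIM the HSC3 point lies at 0.50 while HSC4 and SAS lie at -0.62 and -0.61.

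EPCAM averaged 246 ± 114 CPM in HPLM and 207 ± 101 CPM in DMEM (SD, n = 3 lines each), with both media spread widely over the lines. Within a line its HPLM level was the higher one in all 3. The blocked log2 fold change was 0.28 ± 0.10 (SE, 95% interval 0.03 to 0.53, edgeR adjusted p = 0.459). EPCAM, ESRP1 and TWIST1 had 1 direction in all 3 lines, 3 of the 10 genes, where 33.9% of all genes tested did. TWIST1 was lower in HPLM in each line, with a blocked log2 fold change of -0.42 ± 0.25 (adjusted p = 0.616). Its log2 ratios of HPLM over DMEM were -1.14 for HSC3, -0.12 for HSC4 and -0.02 for SAS. Most of the difference thus came from HSC3. Transcript ENST00000354571 made up 0% of the TWIST1 estimate in HPLM and 40.43% in DMEM for HSC3, and 9.04% and 35.55% for HSC4. For SAS the order was the reverse, at 20.28% in HPLM and 14.63% in DMEM. The TWIST1 ratios describe the sum over its transcripts, and levels of its single transcripts were not tested between media. ESRP1 had -0.07 ± 0.09 (adjusted p = 0.816), with an interval of -0.28 to 0.14.

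The other 7 genes had a higher level in HPLM in some lines and a lower one in others. CDH1 had log2 ratios of 0.62 for HSC3, -0.22 for HSC4 and 0.13 for SAS, and CDH2 had 0.64, -0.75 and 0.40. FN1 had 0.30 for HSC3, 0.77 for HSC4 and -0.44 for SAS. These single-line ratios have no replicate. For scale, the 90th percentile of the absolute log2 ratio over all genes tested was 0.80 for HSC3, 0.75 for HSC4 and 0.79 for SAS. TWIST1 in HSC3 lay beyond this percentile, as did FN1 in HSC4 and CDH2 in HSC4 by a narrow margin.

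VIM averaged 158 ± 130 CPM in HPLM and 157 ± 54.2 CPM in DMEM (SD, n = 3 lines each), with a blocked log2 fold change of -0.24 (95% interval -0.81 to 0.33, edgeR adjusted p = 0.77). CDH1 averaged 93.2 ± 51.1 CPM in HPLM and 92.6 ± 74.0 CPM in DMEM, with 0.17 (-0.23 to 0.57, adjusted p = 0.77). FN1 gave 0.21 (-0.36 to 0.77) and CDH2 -0.04 (-0.76 to 0.68), with adjusted p = 0.80 and 0.977. SNAI2 gave -0.16 (-0.48 to 0.16), CDH3 -0.08 (-0.37 to 0.20) and ZEB1 0.05 (-0.96 to 1.05).

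Several of the 10 genes came mainly from a single transcript. VIM came from 1 transcript, ENST00000224237, at 93.2% to 97.9% of the gene in each library, and EPCAM from ENST00000263735 at 88.3% to 93.0%. SNAI2 came from ENST00000020945 at 91.7% to 98.1%. CDH1 was led by ENST00000261769, at 75.3% in HPLM and 58.8% in DMEM in SAS, the widest spread of the 3 lines, and at 65.1% to 72.0% in the other 4 libraries. ENST00000565810 of CDH1 took 9.18% in HPLM and 28.6% in DMEM in SAS. ESRP1, with 11 transcripts in the table, was spread over 7 transcripts that reached 5% of the gene in some library. All these shares are estimates that divide reads among overlapping transcripts.

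FN1 mRNA can include or skip 2 exons that encode fibronectin type III repeats, extra domain A and extra domain B, which are typical of cellular rather than plasma fibronectin. These exon shares and those of FGFR2 were chosen after values had been seen. Extra domain A was taken as the exon at 215380811 to 215381080 of chromosome 2, and extra domain B as the exon at 215392931 to 215393203 (GENCODE 29, GRCh38). Transcripts with extra domain A made up 53.5% in HPLM and 53.3% in DMEM for HSC3, 56.4% and 55.8% for HSC4, and 52.6% and 59.2% for SAS. The share was thus alike in HSC3, where transcripts with the exon summed to 178 estimated counts in HPLM and 144 in DMEM, and in the lines with far higher FN1. Between 90.3% and 95.5% of the FN1 estimate entered that share. Extra domain B was in 6.72% and 10.99% for HSC3, 7.93% and 6.27% for HSC4, and 5.12% and 4.52% for SAS, in HPLM and DMEM.

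ESRP proteins favour the IIIb exon of the fibroblast growth factor receptor gene FGFR2 over its IIIc exon, and mesenchymal cells use IIIc. The IIIb exon was taken at 121518682 to 121518829 of chromosome 10. Among transcripts that held 1 of these exons, those with IIIb made up 71.4% in HPLM and 70.2% in DMEM for HSC3, 79.5% and 77.4% for HSC4, and 71.9% and 81.0% for SAS. IIIb was thus the more abundant form in all 6 libraries. The shares rest on few estimated counts, 173 to 277 per library with IIIb and 45 to 118 with IIIc. Between 54.5% and 64.8% of the FGFR2 estimate entered this share, and the remaining estimate came from transcripts outside these 2 sets.

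**Figure D4:**
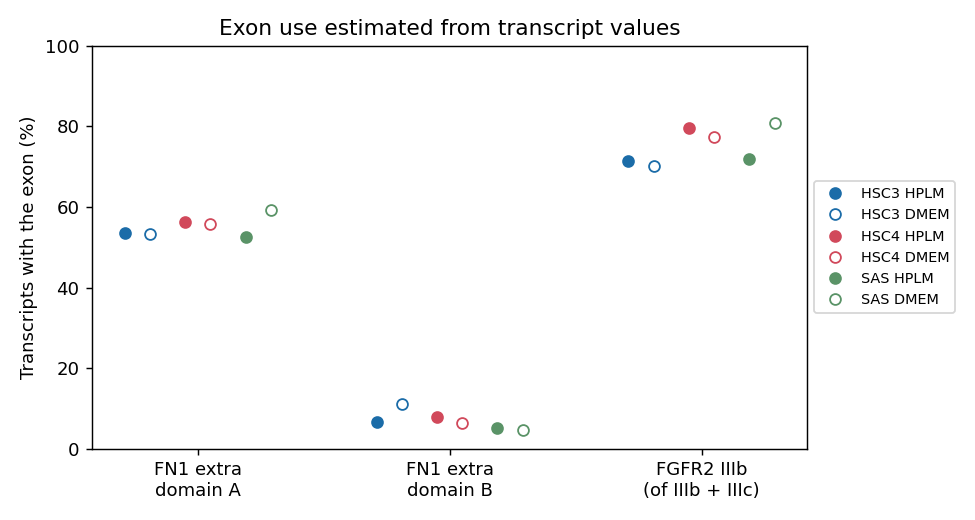
Percent of transcript estimates that hold an exon, for extra domains A and B of FN1 and for IIIb of FGFR2, in 6 libraries with HPLM as filled and DMEM as open points. Extra domain A lies between 52.6% and 59.2% in all libraries.

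The wider factor family had 12 genes listed, 3 of them members, and 7 were tested. Of these, 1 was called as higher and 0 as lower in HSC3 against HSC4, 1 higher and 2 lower in HSC3 against SAS, and 2 higher and 3 lower in HSC4 against SAS. The median log2 fold change of the 7 was -0.63, -0.07 and -0.21 in these comparisons, and 0.05 between media. Over all genes tested, 18.6% were called as higher and 18.8% as lower, then 20.6% and 18.8%, then 21.3% and 20.0%. TWIST2, a close relative of TWIST1, was at 1.33 CPM in HPLM and 0.836 in DMEM in HSC3, at 0 in both HSC4 libraries, and at 7.89 and 11.9 in SAS (edgeR adjusted p = 0.00147 for HSC4 against SAS). SNAI1, the SNAIL gene, was at 0.102 and 0.157 CPM for HSC3, 0.809 and 0.191 for HSC4, and 3.65 and 2.53 for SAS. It passed the filter on low counts mainly through SAS, where it was highest. Its calls against SAS are among those above but rest on few counts in HSC3 and HSC4, so no p-value is given. SAS, which had the least SNAI2, thus had the most SNAI1 and TWIST2. ZEB2, the relative of ZEB1, did not exceed 0.43 CPM in any library, and TCF3, which encodes the E2A proteins, lay between 30.6 and 53.7 CPM. Between media 0 of the 7 were called, with 0 at an unadjusted p under 0.05 by edgeR.

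Of 13 genes listed as epithelial regulators, ESRP1 among them, 11 were in the table and tested. In HSC3 against HSC4, 2 were called as higher and 5 as lower, in HSC3 against SAS 2 as higher and 5 as lower, and in HSC4 against SAS 1 as higher and 2 as lower. Their medians in log2 fold change were -0.55, -0.65 and -0.32, and 0.06 between media. Of all genes tested, 18.6% were called as higher and 18.8% as lower, 20.6% and 18.8%, and 21.3% and 20.0% in these line comparisons. EHF, an epithelial ETS factor, was at 112 CPM in HPLM and 81.9 in DMEM for HSC3, 61.4 and 53.1 for HSC4, and 25.7 and 17.4 for SAS (log2 fold change 2.18 ± 0.14, SE, HSC3 against SAS; edgeR adjusted p = 0.000521). ELF3, another ETS factor, was lower in HSC3 than in HSC4 by -2.33 ± 0.45 (adjusted p = 0.0108). OVOL1, a repressor of mesenchymal genes, was lower in HSC3 than in HSC4 by -1.87 ± 0.43 (adjusted p = 0.0191) and than in SAS by -2.28 ± 0.43 (adjusted p = 0.00951). ESRP2, the relative of ESRP1, had 47.4 and 48.6 CPM in SAS and at most 33.1 CPM in the other libraries. Between media 0 of the 11 were called. At an unadjusted p under 0.05 edgeR counted 2 of the 11, against 10.1% of all genes. These were EHF (0.41 ± 0.11, adjusted p = 0.381) and GRHL3 (1.81 ± 0.53, adjusted p = 0.401). GRHL3 was at 0.359 CPM in HPLM and 0.366 in DMEM for HSC3. It was at 2.32 and 0.477 CPM for HSC4, and at 8.42 and 1.61 CPM for SAS.

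**Figure D5:**
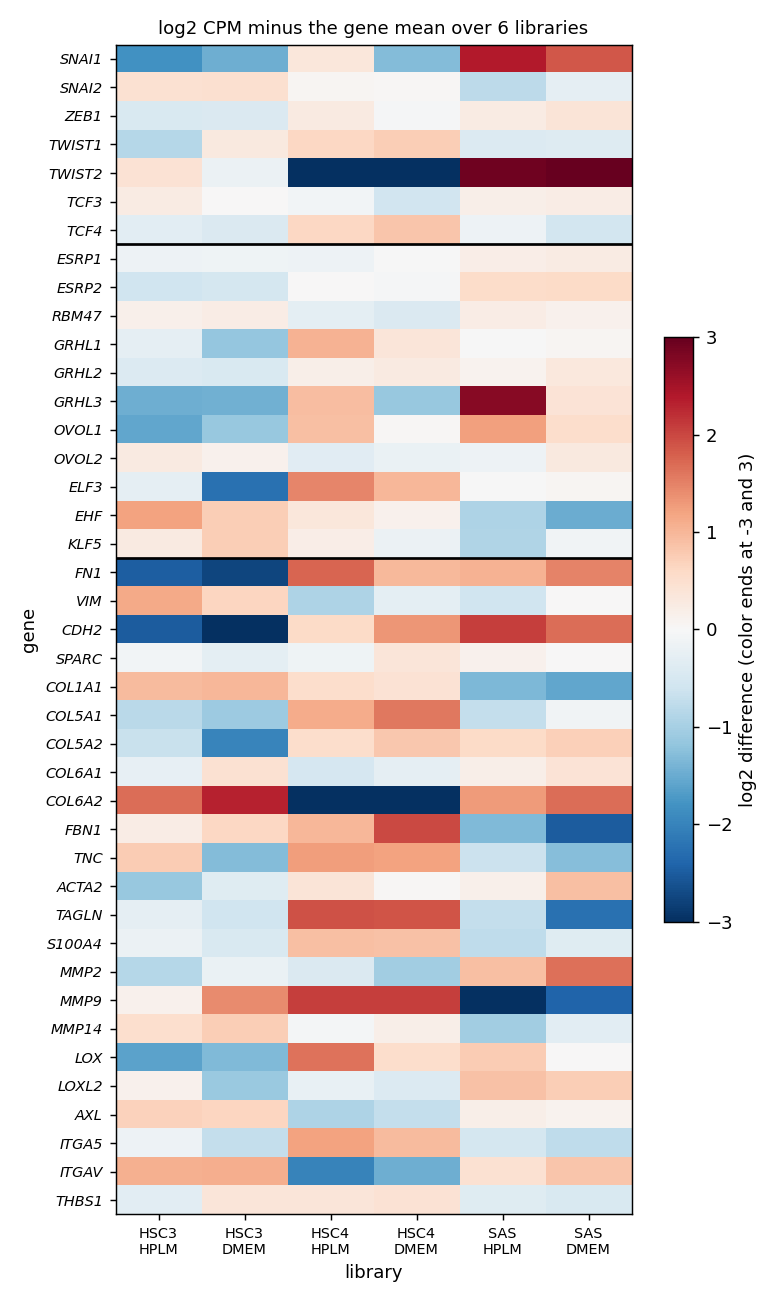
Log2 CPM minus the mean of the gene over 6 libraries (prior count of 2), for tested genes of 3 lists, from top to bottom 7 transcription factors, 11 epithelial regulators and 23 of the 24 tested mesenchymal genes. FN1 and CDH2 are low in both HSC3 libraries, as COL6A2 and TWIST2 are in both HSC4 libraries.

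Of 28 mesenchymal genes listed, VIM, FN1 and CDH2 among them, 24 were tested. In HSC3 against HSC4, 5 were called as higher and 9 as lower, in HSC3 against SAS 6 and 7, and in HSC4 against SAS 10 and 6. Median log2 fold changes were -1.08, 0.24 and 0.08. The shares of all genes tested called as higher and lower were 18.6% and 18.8%, 20.6% and 18.8%, and 21.3% and 20.0%. COL6A2, a collagen VI chain gene, was at 6.35 CPM in HPLM and 9.88 in DMEM for HSC3, 0.108 and 0.0477 for HSC4, and 4.77 and 6.35 for SAS (edgeR adjusted p = 0.000746 for HSC3 against HSC4). MMP9, a gelatinase gene, was at 9.53 and 23.5 CPM for HSC3, 36.7 and 36.8 for HSC4, and 0.794 and 1.56 for SAS (adjusted p = 0.000791 for HSC4 against SAS). The mesenchymal list therefore held genes lowest in each of the 3 lines. Between media 0 of the 24 were called, and the median log2 fold change was -0.04. By edgeR 4 had an unadjusted p under 0.05, where 10.1% of all genes did.

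Tight junction, polarity and catenin genes numbered 21, of which 20 were tested. In HSC3 against HSC4, 2 were called as higher and 9 as lower, in HSC3 against SAS 5 and 7, and in HSC4 against SAS 9 and 2. The medians of this list were -0.31, -0.22 and 0.52 on the log2 scale. Calls over all genes tested made up 18.6% higher and 18.8% lower, 20.6% and 18.8%, and 21.3% and 20.0% in the same order. CTNND1 encodes p120 catenin, which binds and stabilizes cadherins at the membrane, and it was at 28.8 CPM in HPLM and 26.9 in DMEM for HSC3, 108 and 134 for HSC4, and 62.1 and 66.9 for SAS. It was lower in HSC3 than in HSC4 by a log2 fold change of -2.11 ± 0.14 (SE, adjusted p by edgeR = 0.000644). CLDN4, a claudin gene, was lower in HSC3 than in HSC4 by -3.76 ± 0.34 (adjusted p = 0.00131), and CLDN7 was higher in HSC4 than in SAS by 2.37 ± 0.25 (adjusted p = 0.00155). Between media 0 of the 20 were called, with a median of 0.08. The median absolute change was 0.12, beside 0.15 over all genes tested. In all 3 lines 5 of the 20 had 1 direction, where 33.9% of all genes tested did. OCLN, the occludin gene, had 1.21 ± 0.30 (adjusted p = 0.374) and CLDN7 0.72 ± 0.19 (adjusted p = 0.381). They were the 2 genes of the list with an unadjusted p under 0.05, against 10.1% of all genes.

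A list of 9 further adhesion genes had 4 that were tested, with median log2 fold changes of 0.33, 0.41 and 0.36 in the 3 line comparisons and 0.04 between media. Of these, 1 was called as higher and 1 as lower in HSC3 against HSC4. In HSC3 against SAS and in HSC4 against SAS, 1 was called as higher and 0 as lower. Among all genes tested, 18.6% were called as higher and 18.8% as lower, 20.6% and 18.8%, and 21.3% and 20.0% in these 3 comparisons. CDH24, a cadherin gene, was at 18.9 CPM in HPLM and 17.0 in DMEM for HSC3, 11.7 and 12.9 for HSC4, and 9.11 and 9.41 for SAS. It was higher in HSC3 than in HSC4 by a log2 fold change of 0.54 ± 0.16 (SE, adjusted p by edgeR = 0.038) and than in SAS by 0.96 ± 0.16 (adjusted p = 0.00609). CDH13 and CDH11 were not called in any comparison, and 0 of the 4 were called between media, with 0 at an unadjusted p under 0.05 by edgeR.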

How the data were processed

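Per the labels' protocols, poly(A) RNA was made into strand-specific libraries and read on a DNBSEQ platform. FastQC, kallisto and hg38 are named in the submitters' processing notes; tool versions, annotation release and use of strand: not given in the sources used here. The authors deposited expected counts per transcript in a form the file name calls scaled TPM, so an estimated count is corrected for transcript length and is not a number of reads. No counting interval is given for that reason. GENCODE 29 places antisense genes over CDH1, CDH2, CDH3, VIM, ZEB1 and TWIST1, and reads of such a pair may be shared.

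The table held 161149 rows. The 1312 repeated rows were counted once, 6878 transcripts without a symbol were left out (0.362% to 0.479% of a library), and 152959 transcripts were summed to 27852 symbols and rounded to whole numbers. Columns were matched to samples by line and medium; names of DMEM columns carry an extra suffix of unknown meaning. The number of unused columns was 0.

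Tools were DESeq2 1.42.0, limma 3.58.1 and edgeR 4.0.16 under R 4.3.3. The filter was filterByExpr, grouped by medium (minimum count 10, minimum total 15), which left 13236 genes, and libraries were scaled by TMM (factors 0.938 to 1.09). The edgeR quasi-likelihood fit had line and medium as terms (residual df 2, prior df 4), with Benjamini-Hochberg adjustment. SE was taken from the estimate and its F statistic, as the size of the first divided by the root of the second. Ratios per line used a prior count of 2. The fit was tested on simulated counts with known changes. The cell line pairs the libraries by design. After subtracting medium means, log2 values correlated at 0.779 to 0.805 within a line. The highest value between lines was -0.335, and subtracting a mean over 3 libraries itself pushes such values below 0. The 10 genes, the lists and the tests were chosen with earlier results of these data known. All 10 genes are named. From each further list up to 3 tested genes per comparison, at a mean CPM of 1 or more, could be named by largest called change and then by smallest p. ZEB2, FGFR2, KRT14, KRT19 and the other cell type markers given were named outside that rule, after their values were seen. FOXC2, MIR200CHG and MIR205HG were not analysed here. Values of 2 further list genes are not reported here, though they enter the counts and medians of their lists. Alternatives were other scalings, DESeq2, limma-voom, no filter, repeated rows, no block and leaving out libraries.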

Additional observations from a re-analysis of the deposited data

Results flagged for a closer look

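For 3 of the 10 genes the log2 ratio of HPLM over DMEM was at least 0.3 in 1 line and at most -0.3 in another. CDH2 had 0.64 in HSC3, from a level under 1 CPM in both media, and -0.75 in HSC4. VIM had 0.50 in HSC3 and -0.62 in HSC4. FN1 had 0.77 in HSC4 and -0.44 in SAS. With 1 library per line and medium the difference between lines was not tested.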

How the results depend on the processing

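Under every alternative 0 of the 10 genes were called between media. Over all genes edgeR called 1, against 0 with upper-quartile scaling, 0 without the low-count filter, 0 without the line as replicate block, 127 with DESeq2 and 9 with limma-voom, and 0 to 4 when a line was left out. The cause was not tested. Leaving out the libraries of the lines compared, 1 at a time (first-named line in HPLM and in DMEM, then the other line in HPLM and in DMEM), gave 2957, 2914, 2746 and 2445 calls over all genes for HSC3 against HSC4 in place of 4952, 3161, 3148, 3156 and 2849 for HSC3 against SAS in place of 5213, and 3360, 2787, 3337 and 2976 for HSC4 against SAS in place of 5463. Over all omissions of libraries or lines the highest counts were 4834, 4912 and 5598. Among the 10 genes, HSC4 against SAS gave 2, 2, 1 and 3 calls in place of 5, and at most 6. A line left with 1 library is assumed to vary like the others. Counts stayed within 1.5 times under all other settings, and the replicate block changed the call of 1 of the 10 genes, EPCAM in HSC4 against SAS.

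Several uncalled estimates changed sign. ZEB1 between media was -0.003 without scaling factors, CDH2 was 0.018 with DESeq2 and 0.021 without the replicate block, and VIM was 0.007 without the block. Leaving out a line gave -0.046 to 0.364 for CDH1, -0.32 to 0.47 for CDH2, -0.22 to 0.008 for CDH3, -0.12 to 0.55 for FN1, -0.26 to 0.001 for SNAI2 and -0.11 to 0.16 for ZEB1. Leaving out libraries gave -0.42 to 0.66 for TWIST1 in HSC3 against SAS (-0.148 without SAS in DMEM), and -0.41 to 0.61 for FN1 (-0.348 without HSC4 in HPLM) and -0.425 to 0.018 for ZEB1 in HSC4 against SAS. Estimates at the level of ZEB1, of CDH2 in HSC3, or of SNAI1 in HSC3 and HSC4, rest on few counts. Those of TWIST2 and COL6A2 in HSC4 rest on few or no counts.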

Other observations

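TGF-beta signalling is a classical inducer of the transition. Of 15 genes listed for its ligands, receptors and SMADs, 14 were tested. In HSC3 against HSC4, 1 was called as higher and 6 as lower, in HSC3 against SAS 5 and 6, and in HSC4 against SAS 4 and 1. Median log2 fold changes were -0.63, 0.23 and 0.37, and -0.15 between media. For all genes tested the shares called as higher and lower were 18.6% and 18.8%, 20.6% and 18.8%, and 21.3% and 20.0%. TGFB2, a ligand gene, was lowest in HSC3, at 6.97 CPM in HPLM and 5.70 in DMEM. It was at 24 and 31.2 CPM for HSC4, and at 25.0 and 14.1 CPM for SAS. HSC3 was lower than HSC4 by a log2 fold change of -2.15 ± 0.30 (SE, adjusted p by edgeR = 0.004). INHBA, which encodes an activin subunit, was higher in HSC4 than in SAS by 2.29 ± 0.28 (adjusted p = 0.00241). INHBA was also higher in HSC3 than in SAS, by 1.95 ± 0.28 (edgeR adjusted p = 0.0037). The ligand genes thus did not share 1 order of the lines. Between media 0 of the 14 were called. INHBA (0.74 ± 0.22) and TGFBI (-0.36 ± 0.13) had an unadjusted p under 0.05 by edgeR, where 10.1% of all genes did.

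Of 9812 genes with a mean of 5 CPM or more, those whose log2 CPM correlated best with CDH1 over the 6 libraries were HCCS (Pearson's r = 0.998), INO80E (0.995) and C15orf39 (0.994). HCCS ranged from 41.5 to 51.6 CPM. For VIM they were TOP3B (0.985), S100PBP (0.985) and SSU72 (0.983). These values describe 6 libraries of 3 lines, of which those of 1 line share most of their expression. They are the 3 highest of 9812 correlations for each gene, and the same search for other genes was not run.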
